A study of Arabidopsis thaliana with 6 samples.

Results

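The genes described here are 92 Arabidopsis thaliana loci whose transcripts were lower in leaves sprayed with salicylic acid (SA) than in mock-sprayed leaves in every replicate pair. They were taken from 13286 loci measured by 1 probe set each. Measured here means that a probe set was annotated to the locus alone. Since 8730 probe sets had no annotation, a locus not counted as measured may still be on the array. A locus was chosen when SA minus mock on the log2 scale was -0.8 or lower between the arrays numbered 1, between those numbered 2 and between those numbered 3. A total of 105 loci met this threshold, 0.79% of those measured, and 13 of them were left out by name, among them XERICO, EXPA8, SWEET13, UGT85A4 and CYP71B26. The same size of difference in the opposite direction was reached in all 3 pairs by 227 loci. Since the differences between SA and mock chose the members, those differences are given as a description and carry no test.

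In the SA group, plants aged 3 to 4 weeks received 1 mM SA with 0.01% of the wetting agent Silwet, and leaves were frozen for RNA 2 hours later. The mock group was sprayed with 0.01% Silwet alone, which the SA group received too, and was harvested at the same time. Each group comprised 3 biological replicates on 1 Affymetrix ATH1 array each. The sources used here give neither accession nor genotype of the plants. Values are log2 signals made with RMA, a procedure that combines background correction, normalisation across arrays and a summary over probes, so 1 unit is a doubling.

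SA is a phenolic hormone that accumulates in infected leaves and switches on defence genes through the NPR proteins and TGA transcription factors. Its action is also known to draw resources away from growth, and it acts against growth hormones such as auxin and gibberellin. Transcripts that are lower soon after SA treatment are therefore of interest beside the better known induced ones, although a steady-state level does not separate slower synthesis from faster decay. In RNA from whole leaves, fewer cells of a type and less RNA per cell cannot be told apart.

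Facts of the whole set of arrays bear on all values below. The median signal of the arrays was 7.42 to 7.47 in SA and 7.5 to 7.52 in mock, and correlations between arrays over the measured loci ran from 0.961 to 0.987. A probe set of the dap spike-in control had a signal of 11.42 on the first SA array and of 11.52 on the first mock array, against 8.27 to 8.44 on the other 4 arrays. By this 1 probe set the arrays numbered 1 stood apart in both treatments. Over all loci, their median deviation from the group mean was 0.0044 in SA and -0.014 in mock. Of the leaf mesophyll markers, 3 of 11 were measured, and their summed linear signal was 31562 to 35659 in SA and 35684 to 38805 in mock. Photosystem gene LHCB4.2 had log2 signals of 13.25 to 13.50 in SA and 13.58 to 13.61 in mock, while RCA, the activase of the carbon-fixing enzyme, had 13.91 to 14.10 in SA and 13.86 to 14.11 in mock, which overlapped. Markers of guard cells, 4 of 10 measured, summed to 1529 to 1683 in SA and 1820 to 1910 in mock; GC1 makes up most of this sum, and the groups of FMA, MUTE and SPCH overlapped. The single measured markers of trichomes (79.4 to 156 in SA, 101 to 165 in mock), epidermis (58.5 to 68.3 in SA, 66.2 to 90.2 in mock) and phloem (2691 to 3651 in SA, 3419 to 4249 in mock) overlapped. None of these markers passed the test across genes, and the part of cell types in the results was not tested.

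Among the 92 members the mean difference over the 3 pairs ran from -2.07 to -0.84, with a median of -1.21, which is a 2.32-fold lower signal in SA. In the pairs numbered 1, 2 and 3 the member medians were -1.22, -1.17 and -1.20, and the medians over all measured loci were 0.0049, -0.0040 and -0.038. The difference was the lowest in pair 1 for 28 members, in pair 2 for 37 and in pair 3 for 27. In 42 members every pair differed by at least 1 log2 unit, and in 17 the mean difference was -1.5 or lower. Of the 92 loci, 10 have a RefSeq symbol, 2 more have a family name among the RefSeq synonyms, and the others are named by locus here.

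**Figure D1:**
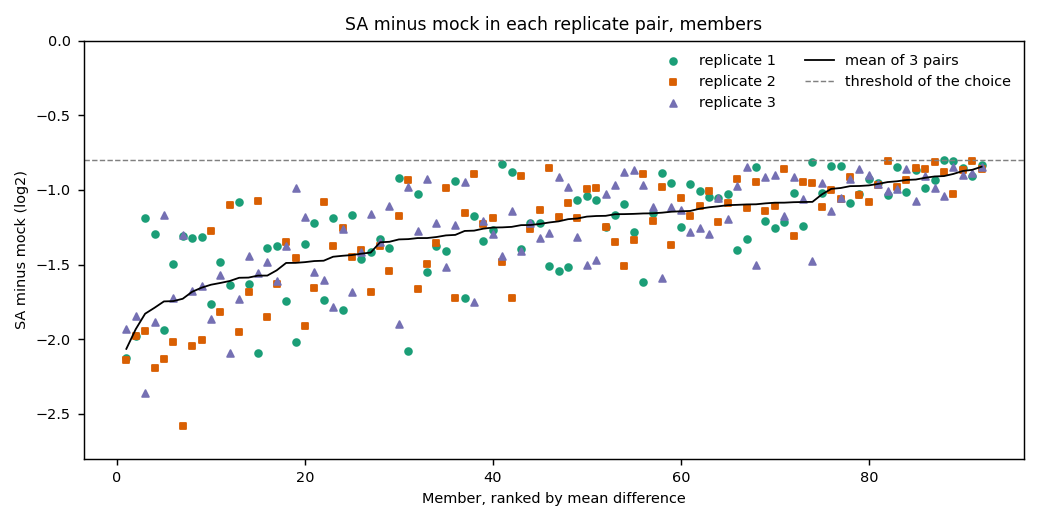
SA minus mock on the log2 scale (vertical axis) in the replicate pairs numbered 1, 2 and 3 for the 92 members, ranked by their mean difference (horizontal axis); the line is the mean of the 3 pairs and the dashed line the threshold of -0.8 that chose them. Mean differences run from -2.07 to -0.84, and no one pair is the deepest throughout.

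Gibberellin perception was represented by GID1A (AT3G05120), a soluble receptor that binds gibberellin and then brings DELLA growth repressors to their destruction. GID1A had log2 signals of 7.73, 8.50 and 7.60 in SA replicates 1, 2 and 3, against 9.0, 9.69 and 8.90 in mock replicates 1, 2 and 3. All SA arrays lay below all mock arrays, and the difference was -1.25 ± 0.054 (SD of 3 pairs), a 2.38-fold lower signal. The other receptors of the family had differences nearer 0 in each pair, with -0.25, -0.61 and -0.46 for GID1C in pairs 1, 2 and 3 and -0.39, -0.46 and -0.17 for GID1B. Neither passed the test across all genes (limma adjusted p = 0.186 for GID1C and 0.394 for GID1B). Limma with treatment alone did not call GID1A either, so this test does not separate the 3 receptors. SLY1, the F-box protein that recognises DELLA proteins bound by the receptor, had a difference of -0.58 ± 0.20 (SE), with an adjusted p of 0.261 in limma without the replicate number as a block and 0.0276 with it. In the gibberellin list 4 of 19 genes were measured, and GID1A, chosen for its difference, is one of them. The other 3 had differences below 0, with a median of -0.44, against -0.0077 over all loci. Limma with treatment alone called 0 of these 3, while 2 reached an unadjusted p below 0.05. At that cut-off limma had 7.40% of all loci as lower.

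Cytokinin signalling was represented by RR16 (AT2G40670), a type-A response regulator, a class whose transcripts respond quickly to cytokinin and whose proteins dampen the pathway. RR16 had log2 signals of 7.25, 7.53 and 6.17 in SA replicates 1, 2 and 3, against 8.58, 8.90 and 7.52 in mock replicates 1, 2 and 3. The highest SA array, at 7.53, was just above the lowest mock array, at 7.52, so the groups overlapped, yet the 3 pairs differed by -1.33, -1.38 and -1.35. This spread over pairs, an SD of 0.023, was among the smallest of the 92 members. The other 5 measured response regulators had mean differences of -0.0094 for RR23 to 0.21 for ARR15. Among them RR19 was above 0 in all 3 pairs, and none was below 0 in all 3. They were taken by RefSeq symbol or synonym, not by class. RR19, RR22 and RR23 had group means of 4.24 to 4.75, so their means over the 6 arrays were below 5.31. No member had a mean over the 6 arrays under that log2 signal. Differences of all loci narrow towards the lowest signals, so these dim genes cannot show whether RR16 stood apart. RR18 and ARR15, with group means of 6.14 to 6.65, differed by 0.10 and 0.21. These families were assembled after the members were known and were not tested.

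MYBC1 (AT2G40970) encodes a MYB-type transcription factor linked to freezing tolerance. Its log2 signals were 8.02, 7.79 and 7.55 in SA replicates 1, 2 and 3, against 8.98, 8.97 and 8.83 in mock replicates 1, 2 and 3. Groups were well apart, and the difference was -1.14 ± 0.16 (SD of 3 pairs).

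Enzymes of primary carbon metabolism supplied ATSPS4F and PDC2. ATSPS4F (AT4G10120) is a sucrose-phosphate synthase, which catalyses a controlling step of sucrose synthesis in leaves. It had log2 signals of 8.13, 8.07 and 7.0 in SA replicates 1, 2 and 3, against 9.61, 9.88 and 8.57 in mock replicates 1, 2 and 3. Replicate 3 was the lowest array of each treatment, the groups did not overlap, and the signal was 3.08-fold lower in SA, by -1.62 ± 0.17 log2 units (SD of 3 pairs). PDC2 (AT5G54960), a pyruvate decarboxylase that turns pyruvate into acetaldehyde, was among the members with the highest signal. It had log2 signals of 10.28, 10.25 and 9.82 in SA replicates 1, 2 and 3, against 11.50, 11.39 and 11.15 in mock replicates 1, 2 and 3. Spread within groups was small beside the difference of -1.23 ± 0.094 (SD of 3 pairs).

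The NPF family of membrane transporters, whose members carry nitrate, peptides, hormones and glucosinolates, supplied NPF3.1 (AT1G68570) and NPF6.4 (AT3G21670). Both were chosen for description after their values were seen, because only their RefSeq synonyms name them. NPF3.1, a transporter of nitrate and nitrite that also carries gibberellin, had log2 signals of 8.53, 8.63 and 8.15 in SA replicates 1, 2 and 3, against 9.91, 9.98 and 9.37 in mock replicates 1, 2 and 3. The groups were separate, and NPF3.1 was lower in SA by -1.32 ± 0.085 (SD of 3 pairs). NPF6.4, also known as a nitrate transporter, had 8.63, 10.20 and 9.30 in SA replicates 1, 2 and 3, against 9.95, 11.32 and 10.14 in mock replicates 1, 2 and 3. Replicate 2 was high in both treatments, so the groups overlapped although each pair was lower in SA, by -1.33, -1.12 and -0.84. The other 9 measured NPF genes had a median difference of 0.13 and a range from -0.17 for NPF2.11 to 0.68 for NPF2.10. None of the 9 was below 0 in all 3 pairs, and 4 were above 0 in all 3.

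Cell wall modification was represented by TBL26 (AT4G01080) and TBL25 (AT1G01430). Both belong to the trichome birefringence-like family, whose enzymes add acetyl groups to wall polysaccharides, and TBL25 and TBL26 have been assigned to mannans. TBL26 had log2 signals of 7.38, 9.01 and 7.48 in SA replicates 1, 2 and 3, against 9.14, 10.28 and 9.34 in mock replicates 1, 2 and 3. The SA array numbered 2 came close to the mock arrays numbered 1 and 3 without reaching them, and the mean difference was -1.64 ± 0.31 (SD of 3 pairs), 3.11-fold. TBL25 had 8.10, 8.70 and 8.51 in SA replicates 1, 2 and 3, against 9.50, 9.63 and 9.49 in mock replicates 1, 2 and 3. Its groups were farther apart, although the mean difference of -1.10 ± 0.26 was smaller. Across the family 22 genes were measured. TBL23, placed with TBL25 and TBL26 in the same enzymatic group, had a mean difference of -0.083. The 20 other genes had a median of 0.043, with -0.66 for TBL38 at the low end and 0.73 for TBL35 at the high end; 4 were below 0 and 7 above 0 in all 3 pairs.

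**Figure D2:**
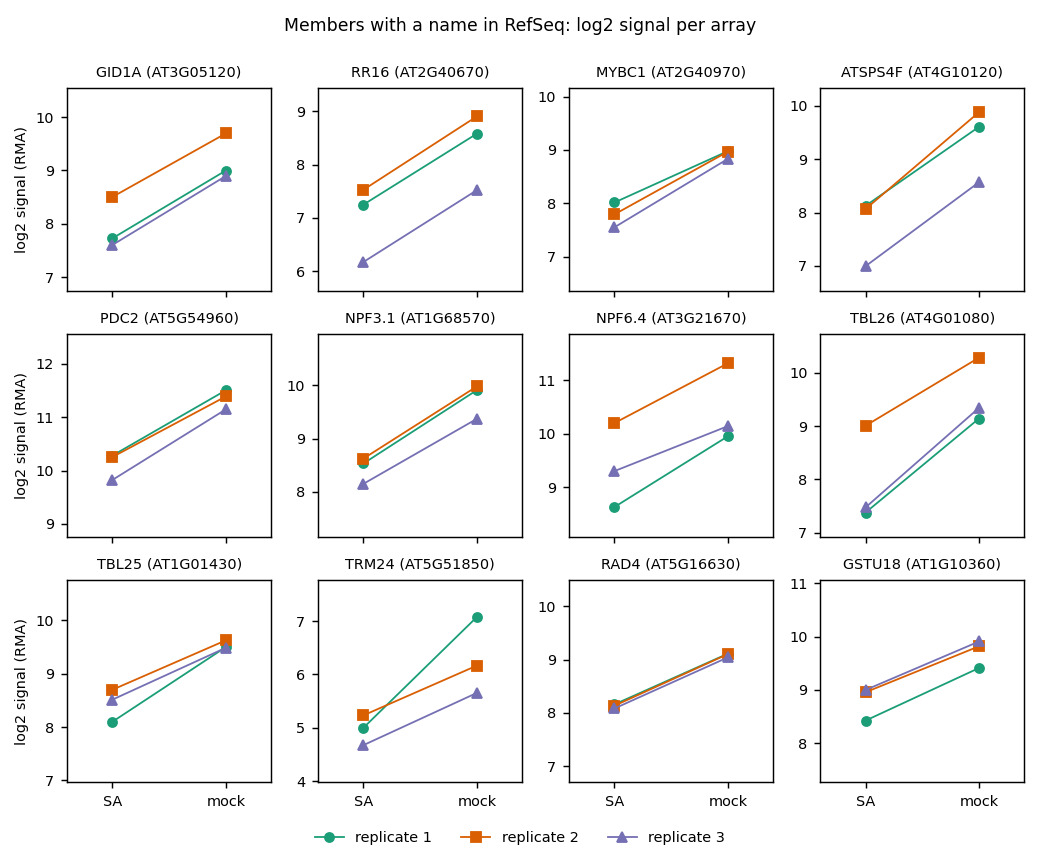
Log2 signals (RMA) of the 12 members with a name in RefSeq, SA at the left and mock at the right of each panel, with a line joining the arrays of the same replicate number; every panel spans the same number of log2 units. Each line is lower at SA, as the rule requires, and the lines run close to parallel in RR16, RAD4 and GID1A and far from parallel in TRM24.

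TRM24 (AT5G51850) belongs to the TON1 recruiting motif family, whose proteins help to place microtubule arrays. It had the lowest signal of all 92 members, with 5.00, 5.23 and 4.67 in SA replicates 1, 2 and 3, against 7.08, 6.16 and 5.65 in mock replicates 1, 2 and 3. Mock replicate 1 stood above the other mock arrays, and pair 1 alone gave -2.08, while pairs 2 and 3 gave -0.93 and -0.98. Without replicate 1 the mean difference was -0.96. Among the 13 other measured TRM genes, TRM20 differed by -0.74, -0.76 and -0.73 in pairs 1, 2 and 3, just short of the threshold. TRM18 had -0.49, -1.11 and -0.51, and the family median without TRM24 was -0.14, with 6 genes below 0 in all 3 pairs.

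RAD4 (AT5G16630), the plant counterpart of a protein that recognises damaged DNA for nucleotide excision repair, differed most evenly. Its log2 signals were 8.16, 8.14 and 8.08 in SA replicates 1, 2 and 3, against 9.11, 9.11 and 9.04 in mock replicates 1, 2 and 3. The pairs thus agreed to within 0.018 log2 units, at a difference of -0.96. GSTU18 (AT1G10360), a tau-class glutathione S-transferase that conjugates reactive compounds to glutathione, had 8.42, 8.96 and 9.0 in SA replicates 1, 2 and 3, against 9.41, 9.82 and 9.91 in mock replicates 1, 2 and 3. Replicate 1 was the lowest of each treatment, and the difference was -0.92 ± 0.063 (SD of 3 pairs). The 10 other measured tau-class genes ran from -0.17 for GSTU26 to 0.66 for GSTU27. None of those 10 was below 0 in all 3 pairs. GSTU15, GSTU21, GSTU25 and GSTU26 had group means of 4.59 to 4.95, so their means over the 6 arrays were also below 5.31. These 4 genes are therefore a weak comparison for GSTU18.

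**Figure D3:**
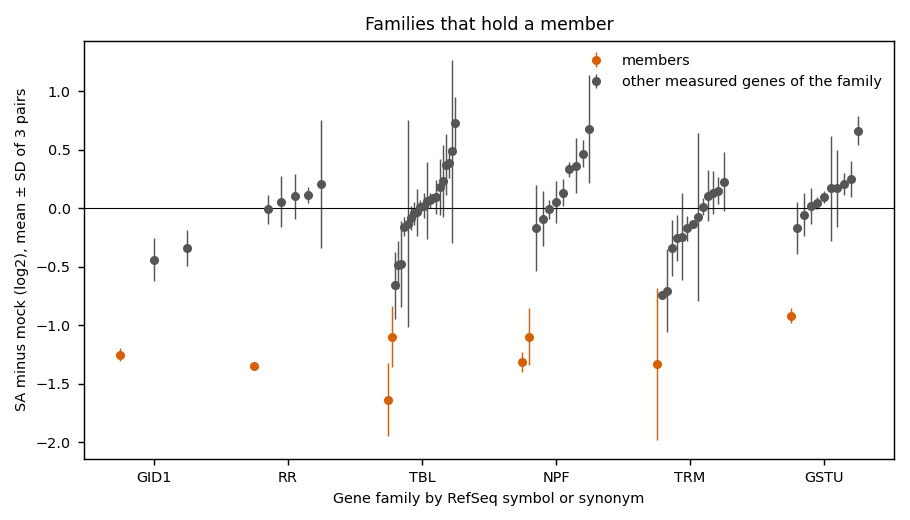
SA minus mock on the log2 scale (vertical axis), mean and SD of 3 pairs, for the measured genes of 6 families that hold a member (horizontal axis, by RefSeq symbol or synonym); members and the other genes of each family are drawn in different colours. The GID1, RR, TBL, NPF and GSTU members lie at -0.92 or lower, while no other gene of these families is below -0.66. In the RR, TBL, TRM and GSTU families some other genes have mean signals under 5.31, towards the level where differences of all loci narrow.

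The lowest differences belonged to loci that the annotation names by locus only. AT4G19430 had log2 signals of 6.22, 7.37 and 5.79 in SA replicates 1, 2 and 3, against 8.35, 9.50 and 7.72 in mock replicates 1, 2 and 3. It was the lowest of all 92, at -2.07 ± 0.12 (SD of 3 pairs) or 4.18-fold, and its groups did not overlap although replicate 2 was high in each. AT3G28270 followed with 7.99, 9.29 and 7.38 in SA replicates 1, 2 and 3, against 9.97, 11.27 and 9.23 in mock replicates 1, 2 and 3. Here SA replicate 2 was above mock replicate 3, so the groups overlapped, while the pairs gave -1.98, -1.98 and -1.84.

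AT2G40435, AT5G57340, AT1G78070, AT5G16030 and AT1G11700 had mean differences of -1.83, -1.79, -1.75, -1.75 and -1.73. AT2G40435 differed by -1.19, -1.94 and -2.36 in pairs 1, 2 and 3, and AT1G11700 by -1.31, -2.58 and -1.30, the widest ranges from lowest to highest pair of the 92. In AT1G11700 the width came from mock replicate 2, with a signal of 8.69 against 7.08 and 6.94 in mock replicates 1 and 3. Its SA signals were 5.77, 6.11 and 5.64. AT2G39920, AT3G56080, AT5G62360, AT1G02300, AT2G15020 and AT5G21100 completed the 15 largest differences, between -1.68 and -1.57. AT3G56080 kept its groups the farthest apart among these 15, with every SA array at least 1.15 below every mock array. AT5G62360, at a high signal, had 9.44, 10.64 and 8.55 in SA replicates 1, 2 and 3, against 11.07, 11.74 and 10.65 in mock replicates 1, 2 and 3, and its groups touched without overlapping.

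Beside RAD4 and RR16, the most even differences were those of AT5G10650, AT2G21185 and AT1G15260. AT2G21185 had 9.35, 9.39 and 9.43 in SA replicates 1, 2 and 3, against 10.57, 10.66 and 10.65 in mock replicates 1, 2 and 3. It varied little between replicates on either side. AT5G10650 was even in another way: its signals spread over 1.22 log2 units within SA and 1.2 within mock, but the pairs gave -0.83, -0.86 and -0.84. AT2G21180, a member named after its values were seen, is separated from AT2G21185 by 1 annotated locus and had a mean difference of -1.11.

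The brightest member was AT4G28240, with 11.03, 11.77 and 10.52 in SA replicates 1, 2 and 3, against 11.88, 12.71 and 12.02 in mock replicates 1, 2 and 3. SA replicate 2 came close to mock replicate 1, and the mean difference was -1.10. AT3G20820 had a mean signal of 9.64 in SA and 11.12 in mock. At the dim end, AT1G08180, AT4G26950 and AT4G01130 had mean SA signals of 5.47, 5.47 and 5.72 and mean mock signals of 6.68, 6.75 and 6.70.

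At the edge of the threshold, the weakest pair of the members AT3G48460, AT1G70550, AT2G28200, AT5G12050 and AT5G55620 gave -0.801 to -0.810. Just outside, the weakest pair of AT5G53020, AT5G01740, AT1G07440, AT5G44410 and AT1G75190 gave -0.7997 to -0.794. The mean differences of these 5 outside loci ran from -1.22 to -0.86, so some of them were lower on average than members inside the threshold.

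Members were not spread evenly over signal levels. By mean signal over the 6 arrays, 0, 11, 44 and 37 members lay in 4 equal bands of all loci from the dimmest to the brightest. The median over members was 8.38, against 7.08 over all loci. The band without members ended at a log2 signal of 5.31. All 92 members are annotated as protein coding, and each was measured by a probe set of the plain kind, without the suffixes that mark shared probes. By locus name, 22, 13, 16, 14 and 27 members lie on chromosomes 1 to 5, shares of 23.9%, 14.1%, 17.4%, 15.2% and 29.3%. Over all measured loci the shares were 25.7%, 16.3%, 20.5%, 14.6% and 22.4%. Median gene length was 1859 bases in members and 2105 over all loci.

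**Figure D4:**
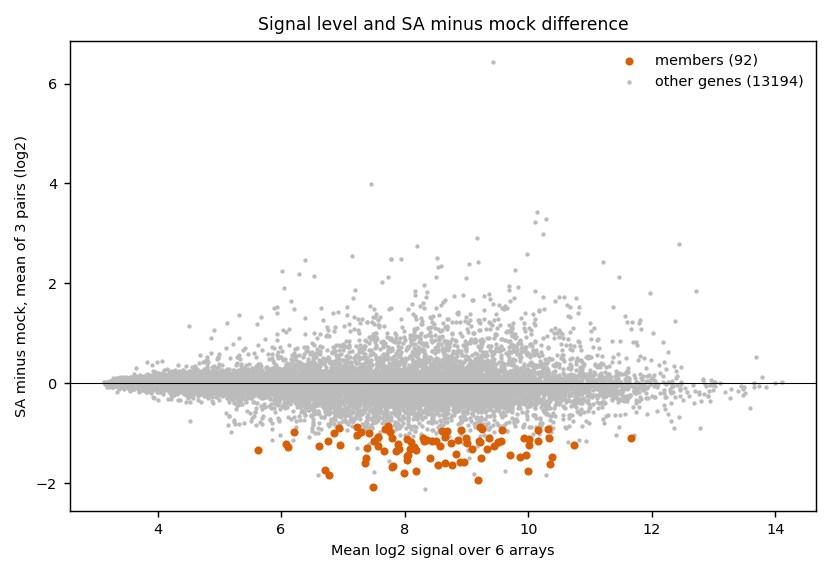
SA minus mock on the log2 scale, mean of 3 pairs (vertical axis), against the mean log2 signal over 6 arrays (horizontal axis) for the 92 members and the 13194 other loci. Members lie at mean signals from 5.63 to 11.66, and the differences of all loci narrow towards the lowest signals.

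No member stood directly next to another in the RefSeq gene order. A measured neighbour, either side, was found for 58 members, 76 loci in all. The neighbours had a median difference of -0.085, and 49 of them, 64.5%, were below 0, against 52.0% of all loci. STOMAGEN, the secreted peptide that promotes stomata and the neighbour of AT4G12980, differed by -0.89, -0.51 and -1.26 in pairs 1, 2 and 3. It was not the lowest neighbour: AT4G33660 and AT1G60000 had mean differences of -0.98 and -0.94, against -0.89 for STOMAGEN. In 11 neighbours the mean difference was -0.5 or lower. In the opposite direction, GT72B1, a glucosyltransferase of xenobiotic metabolism next to TBL26, differed by 1.03, 1.19 and 2.35. GT72B1 was the only neighbour higher by at least 0.8 in every pair. These neighbours were named after their values were seen.

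The replicates of a treatment differed more among members than among loci in general. The median SD within a group was 0.42 in SA and 0.39 in mock for members, against 0.16 in SA and 0.17 in mock for all loci. It was 0.34 in SA and 0.36 in mock for the 227 loci higher in all pairs. A wide spread was thus not particular to the members. Replicate 2 was the highest SA array in 60 members and the highest mock array in 64, shares of 65.2% and 69.6%, against 27.1% and 25.5% of all loci. Replicate 3 was the lowest in 54 members within SA and in 53 within mock, shares of 58.7% and 57.6%, against 31.8% and 29.9% of all loci. The 227 loci that were higher by at least 0.8 in all pairs had another order, with replicate 2 the highest in 7.05% within SA and 8.81% within mock.

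Replicate 2 exceeded replicate 3 by a median of 0.50 log2 units among members in SA and by 0.51 in mock, and in 78 of 92 members on each side. Over all loci the corresponding medians were -0.0095 in SA and -0.031 in mock, and replicate 2 was above replicate 3 in 48.3% and 44.6%. In 57 members, 62.0%, all 3 replicates stood in the same order in SA and in mock, against 33.8% of all loci. A locus with a wide spread could pass the threshold in all 3 pairs only where its SA and mock arrays moved together, so this last share is in part set by the choice. The sources used here do not say what the replicate number marks, and its part in these levels was not tested.

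AT1G51090, named here after its values were seen, had the widest range within mock. Its log2 signals were 6.72, 8.59 and 6.43 in SA replicates 1, 2 and 3, against 8.27, 10.08 and 7.36 in mock replicates 1, 2 and 3. The pairs gave -1.55, -1.49 and -0.93, although SA replicate 2 was above both mock replicates 1 and 3. AT5G59050 came second in this respect, with a range of 1.38 within SA and 2.22 within mock. In 18 of the 92 members the range within mock was larger than the size of the mean difference between treatments. This held for 10445 of all 13286 loci and for 16 of the 227 loci higher in all pairs. The choice required a large difference in each pair, so the member count is in part set by it.

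**Figure D5:**
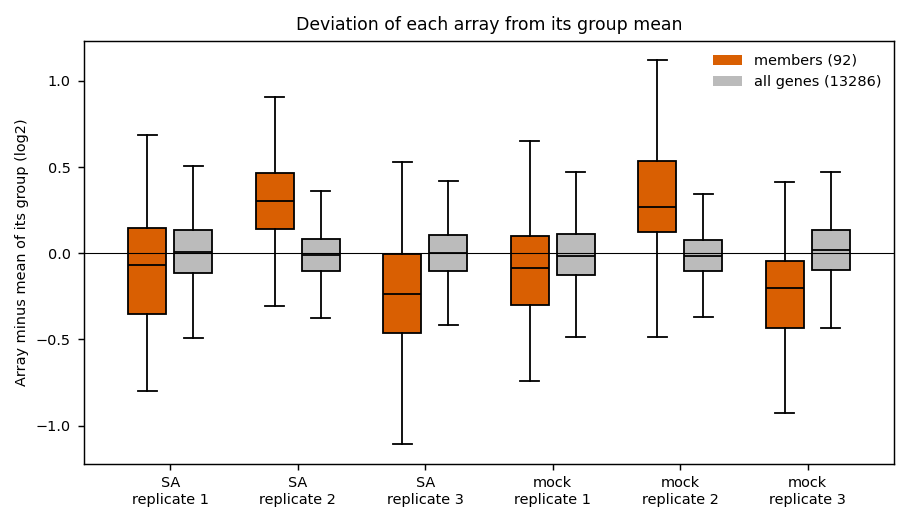
Deviation of each array from the mean of its group on the log2 scale (vertical axis) for the 3 SA and the 3 mock arrays, as boxes from the lower to the upper quartile with the median as a line and whiskers without outlying loci, for the 92 members and all 13286 loci. The member medians for replicate 2 are 0.30 within SA and 0.27 within mock, those for replicate 3 are -0.24 within SA and -0.20 within mock, while those of all loci stay between -0.014 and 0.021.

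In 78 members all SA arrays lay below all mock arrays, and in the other 14, among them AT3G28270, RR16, NPF6.4 and AT1G51090, the groups overlapped. Such a separation was found in 9.45% of all loci. Limma, fitted over all loci with treatment as its only term, called 23 members as lower at an adjusted p under 0.05, where it called 0.595% of all loci as lower and 1.04% as higher. With the replicate number as a block it called all 92, where it called 4.76% of all loci as lower and 5.15% as higher. Nothing is read from these counts, since the same differences chose the members. Fits without SA replicate 1, 2 or 3 called 4, 0 and 1 of the 92, where 8, 1 and 2 of all loci were called as lower. Fits without mock replicate 1, 2 or 3 called 4, 0 and 2 of the 92, where 6, 0 and 4 of all loci were called as lower. At an unadjusted p under 0.05 limma had 68 to 85 of the 92 in those 6 fits, and had 4.76% to 8.32% of all loci as lower.

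The choice was repeated with 2 pairs, and the pair left out was then read. Loci at -0.8 or lower in pairs 1 and 2 numbered 143, with left-out names included, and 105 of them, 73.4%, were at -0.8 or lower in pair 3 as well. Over all loci that share was 3.42%. Chosen by pairs 1 and 3, 139 loci gave 75.5% in pair 2, against 2.65% of all loci. Chosen by pairs 2 and 3, 187 loci gave 56.1% in pair 1, against 2.07% of all loci. The same 105 loci make up each of these counts. They are the loci that met the threshold in all 3 pairs, so the shares describe the choice and are no separate test. In the pair not used, 141 of 143, 137 of 139 and 181 of 187 loci were below 0, and the medians were -1.06, -1.08 and -0.88 in pairs 3, 2 and 1. Over all loci 56.7%, 50.8% and 49.1% were below 0 in pairs 3, 2 and 1. The same 105 loci are part of these counts too, so they are no separate test either.

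Genes of growth, hormone and leaf pathways were read from 17 lists with 310 loci, of which 45 were measured. Listed loci not counted as measured had no probe set annotated to them alone, which does not mean that the array lacks them. GID1A and EXPA8 met the threshold of the choice, so they are not counted here among the other 43. Limma with treatment alone called 0 of the 43, against 1.63% of all loci called in either direction. At an unadjusted p below 0.05 limma had 8 of the 43 in either direction, with GH3.3 and HYH higher. It had 7.40% of all loci as lower. That share leaves out the loci that were higher, so it is no like background for this count. With the block it called 6 of the 43, 3 lower and 3 higher, against 4.76% of all loci lower and 5.15% higher. HAT2, a homeodomain-leucine zipper factor induced by auxin, had log2 signals of 9.35, 8.76 and 8.45 in SA replicates 1, 2 and 3, against 10.08, 9.91 and 9.72 in mock replicates 1, 2 and 3. All its SA arrays were below all mock arrays, with a difference of -1.05 ± 0.24 (SE) and a limma adjusted p of 0.107, or 0.0112 with the block. It missed the threshold of the choice through pair 1, at -0.73. GH3.3, which conjugates auxin to amino acids, differed by 1.94 ± 0.52 (adjusted p = 0.162 in limma, 0.00364 with the block), and IAA29, an auxin response repressor, differed by -1.11 ± 0.55 (adjusted p = 0.469). The IAA29 pairs gave -0.092, -0.70 and -2.56, and without SA replicate 3 its difference was -0.52. The 4 measured auxin genes had a median of -0.58.

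In the list of low energy and sugar starvation genes, 5 of 24 were measured, 4 had a difference below 0, and the median was -0.29. APL3, a large subunit of the enzyme that commits glucose to starch, differed by -0.84, -1.0 and -0.54 in pairs 1, 2 and 3, with a limma adjusted p of 0.650, or 0.0160 with the block. EXO, a secreted protein that promotes leaf growth, differed by 0.998 ± 0.697 (SE), with an adjusted p of 0.663, or 0.0200 with the block. Without SA replicate 3 the differences were -0.40 for APL3 and 0.35 for EXO. MCCB, which takes part in leucine breakdown, had -0.43 ± 0.14 (adjusted p = 0.232). In the cell wall list 10 of 32 genes were measured, with a median of 0.099 and 4 below 0, among them EXPA8, which met the threshold and was left out by name. XTH18, XTH33 and EXPA15 had differences of 1.71, 0.32 and 0.25, and none was called. Without SA replicate 3 they were 0.73, 0.072 and 0.11, and EXPA15 was at -0.078 without mock replicate 1.

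The remaining lists held few measured genes. Differences were -0.54, -0.76 and -0.43 for the dehydration genes COR47, COR15B and COR15A, with a list median of -0.54 over 3 of 20 genes, and none was called. Without mock replicate 2, the COR15A difference was 0.48 and that of COR15B was -0.13. PDF1.2b, PDF1.2 and JMT of the jasmonate list differed by -0.87, -1.06 and 0.28, and the median of its 4 measured genes was -0.71. HYH, a light signalling factor related to HY5 and the only 1 of 23 genes measured in its list, differed by 1.86 ± 0.32 (SE), with a limma adjusted p of 0.0547, or 0.0240 with the block. GI, a clock gene, differed by -0.54, and WSD1, a wax ester synthase, by 0.026. BCAT4, an enzyme of glucosinolate synthesis, differed by -0.18; the signs of WSD1 and BCAT4 changed when 1 array was left out. The brassinosteroid and aquaporin lists had no gene analysed here. By cell type, the differences were -0.25, -0.22, -0.016 and 0.0040 for GC1, FMA, MUTE and SPCH of guard cells, -0.36 for TRY of trichomes, -0.28 for ACR4 of the epidermis and -0.39 for SWEET11 of the phloem.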

How the data were processed

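Total RNA from 6 leaf samples was labelled with biotin, per the labels' protocols, and 1 array was used per biological replicate. The deposited table holds log2 signals of 22810 probe sets, computed with RMA by the authors (source: the submitters' processing notes); neither version nor filters are stated there. Since RMA equalises the arrays, a change common to most transcripts would hardly show. The number of arrays limits the precision.

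Control probe sets (64, AFFX) were left out. Probe sets with 1 gene in the platform annotation were matched by gene identifier to RefSeq loci of TAIR10.1, and the highest mean over 6 arrays was kept per locus; 8730 probe sets had no annotation. Differences are SA minus mock. Limma 3.58.1 in R 4.3.3 (lmFit, eBayes, treatment only, Benjamini-Hochberg over 13286 loci, calls at adjusted p under 0.05) gave the backgrounds and the values of listed genes, and was tested on simulated data. Deviations from group means correlated by 0.76, 0.48 and 0.56 within numbers 1, 2 and 3, and the arrays were treated as paired by number, on the evidence of the values alone. Members and lists were chosen with earlier results of these data known.

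Genes were named by rule: among members the 15 largest mean differences, the 5 smallest and 5 largest ranges over pairs, the 4 brightest and 4 dimmest, those with a symbol or on a list, and 5 on each side of the threshold; on each list up to 3 others by smallest p. Role groups from product names, protein identity and promoter motifs were not used here. Alternatives were scaling, low values, left-out replicates, thresholds and the block.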

Additional observations from a re-analysis of the deposited data

How the results depend on the processing

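The number of members, 92, was 123 at a threshold of -0.7 and 42 at -1, all among the 92 in the second case. It was 16 when every SA array had to lie 0.8 below every mock array, and 246 by group means without pairs, among which all 92 were found. With arrays centred on their medians 77 remained, with quantile normalization again 83, with 32 linear units added 65, and with dim loci left out 91. By 2 pairs alone, leaving out 1 replicate number, 125 to 171 loci passed, 171 without replicate 1. Over all loci limma called 217, with 63.6% higher in SA, and 74.2% of 159 after centring. Calls numbered 135 with 32 linear units added, 479 with array quality weights, 334 over all probe sets and 1316 with the replicate block; leaving out 1 array gave 5 to 57, the lowest without mock replicate 2. On the fixed lists limma called 8 genes with the replicate block, 2 (HYH and HAT2) with array weights and 1 (HYH) with either a trended robust fit or dim loci left out, against 0 otherwise. The replicate block changed the calls of 6 listed genes beside GID1A and EXPA8, and turned none. The shares in pairs 1, 2 and 3 when left out of the choice were 53.6%, 77.4% and 69.0% after centring and 54.8%, 72.9% and 66.2% at a threshold of -1. Signs were read for the up to 3 genes named by smallest p on each list, not for other listed genes such as SPCH. Among those named genes, with no call, leaving out 1 array turned the sign of COR15A (-1.18 to 0.48), EXPA15 (-0.078 to 0.68) and WSD1 (-0.66 to 0.68). The same was seen for BCAT4 (-0.41 to 0.048), MUTE (-0.093 to 0.073) and RCA (-0.061 to 0.066). MUTE was 0.026 after centring and 0.042 with array weights, and RCA was -0.018 with array weights. All 37 members named by the rule kept a negative mean difference in every alternative tried, from -2.15 to -0.68. Leaving out a pair or adding linear units could not turn a sign, since the choice required -0.8 or lower in every pair. Nothing is read from the unchanged sign. The promoter motif comparison was not run. The cause of these changes was not tested.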

Other observations

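Of the 8730 probe sets without annotation, 91 (1.04%) met the same threshold of -0.8 in all 3 pairs, against 0.79% of the annotated loci. The lowest 3 had mean differences of -2.15, -2.15 and -2.11, beside -2.07 for AT4G19430, the lowest member. Their genes are not named here.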
